A study of Mus musculus with 6 samples.

Results

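The 28 genes described here make cholesterol, sense it or move it, out of 55378 genes in the deposited table. They were taken as a fixed list of names, which was chosen with earlier results of these data known. All 28 were found by symbol and had enough counts to be tested. Embryos had received an siRNA against Eif4a3 (knockdown) or a negative control siRNA (NC) by injection at the zygote stage. On day 5 they were harvested, and the labels call them blastocysts. Each library came from a pool of 5 embryos, with 3 libraries per group, and strain and parents were not given in the sources used here. Eif4a3 encodes an RNA helicase that sits on spliced mRNA as a core part of the exon junction complex. Since nothing says that the pools were separate matings, p-values measure only the spread between these pools. In pooled embryos, fewer cells of a type and less RNA per cell cannot be told apart.

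Cells build cholesterol from acetyl-CoA. A first set of enzymes makes mevalonate and then farnesyl diphosphate, and a second set makes squalene, closes its rings and trims lanosterol to cholesterol. When sterol in the endoplasmic reticulum is low, the escort protein SCAP carries SREBP transcription factors to the Golgi, where they are cut and released to switch on most genes of the route. INSIG proteins hold SCAP back when sterol is plentiful. Sterol that arrives in lysosomes leaves them through NPC2 and NPC1.

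Levels below are in CPM, a gene's counts relative to the effective size of its library, and fold changes and adjusted p-values come from the quasi-likelihood test of edgeR over 15619 genes with a threshold of 0.05. Counts summed to 16157719 to 18697754 per knockdown library and 15607227 to 18389986 per NC library. Eif4a3 itself had 16.0, 36.2 and 56.2 CPM in the knockdown libraries, against 302, 255 and 202 CPM in NC. Between libraries, log2 CPM correlated at 0.921 to 0.941 within the knockdown, 0.938 to 0.965 within NC and 0.818 to 0.883 between groups. Summed blastocyst markers were lower in the knockdown. The 6 primitive endoderm markers summed to 65.4 to 83.6 CPM in the knockdown and 259 to 280.1 CPM in NC, the 5 inner cell mass markers to 146 to 174 and 237 to 303 CPM, and the 7 trophectoderm markers to 507 to 2179 and 2155 to 5659 CPM, where the groups overlap. Of these 18 markers 0 were higher and 6 lower, with 17 tested. Of 10 cumulus and granulosa markers, 5 (Amh, Fshr, Cyp19a1, Ptx3 and Tnfaip6) were at 0 in every library, and the sum was 0.36 to 0.67 CPM in the knockdown and 0.80 to 1.59 CPM in NC. Sperm markers summed to 0.97 to 3.37 CPM in the knockdown and 1.04 to 2.43 CPM in NC, fibroblast markers to 0.963 to 10.7 and 1.79 to 11.8 CPM. The 5 blood markers summed to 3.42 to 6.26 CPM in the knockdown and 7.02 to 48.5 CPM in NC. The part of these marker differences in the results below was not tested.

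Of the 28 genes, 8 were higher in the knockdown, 2 were lower and 18 did not pass. Among all genes tested 7.52% were higher, 5.56% lower and 13.1% called in either direction. The 8 higher genes were Insig1, Cyp51, Msmo1, Sc5d, Hsd17b7, Hmgcs1, Fdft1 and Sqle, and the 2 lower genes were Npc1 and Lbr. The median log2 fold change was 0.88 over the 28 genes and 0.03 over all genes tested. All 3 knockdown libraries lay above all 3 NC libraries in 15 of the 28 genes, where this held for 20.1% of all genes tested. All 3 lay below in 2 genes, against 16.4% of all genes tested. Summed over the 19 synthesis enzymes, the level was 5433, 4729 and 5724 CPM in the knockdown libraries and 2371, 3095 and 2837 CPM in NC, and Fdps and Fdft1 made up most of it.

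**Figure D1:**
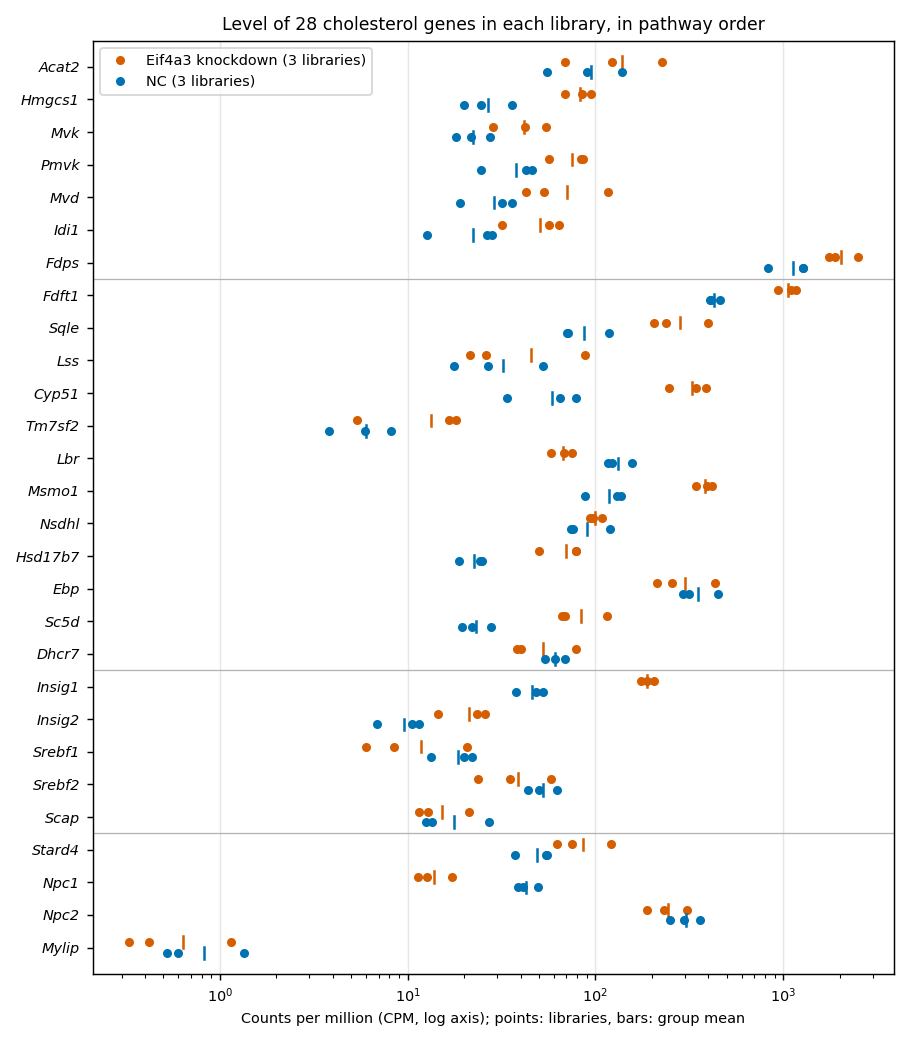
Level of each of the 28 genes in every library, in CPM on a log axis, with genes in pathway order from top to bottom and lines between the mevalonate route, the sterol route, the sensor and SREBP genes, and the transfer and uptake genes. Orange points are knockdown libraries and blue points NC libraries, and short bars are group means; Insig1, Cyp51 and Msmo1 lie clear of NC on the higher side, Npc1 and Lbr on the lower side.

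RefSeq promoter windows, from 250 bases before to 50 after each annotated start (GRCm38.p6), were matched for 23 of the 28 genes (not for Fdps, Fdft1, Sqle, Stard4 and Npc1) and searched on both strands for letters that SREBP and its partner factors are known to bind. The sterol regulatory element TCACCCCAC was in the window of Hmgcs1 alone among these genes (0.638% of tested genes with a window hold it), and its looser form TCACNCCAC, which every match of the first also meets, was likewise in that gene alone (1.43%). The E-box form TCACGTGA was in 0 of the 23 (2.07%). The box of the factor NF-Y, CCAAT, was in 21 of the 23, or 91.3%, while 43.3% of tested genes with a window hold it. The box of SP1, GGGCGG, was in 22 of the 23, or 95.7%, against 65.8%. The CCAAT letters were in the windows of 6 genes that rose, of Lbr, the only lower gene with a window, and of 14 genes that did not pass. A match is a description of letters and not a binding site. For Sc5d, Hmgcs1, Lbr, Nsdhl and a window of Srebf1, bases shortly after the annotated start were in no GENCODE vM21 transcript of the gene. Those starts, and with them the place of the matches, are less sure, including the sterol element of Hmgcs1. The stretches below are upstream of the start and outside every exon of the table, for the 4 higher genes with the smallest p that hold CCAAT or the sterol element there. Cyp51 and Msmo1 also hold CCAAT before the start, but not within the exon-free stretch, so neither is printed. A GGGCGG match alone was not counted for this choice. Capitals mark the NF-Y box (CCAAT, which reads ATTGG on the opposite strand), the SP1 box (GGGCGG, which reads CCGCCC there) and in Hmgcs1 the element TCACCCCAC.
Insig1, chr5:28071162-28071240, plus strand: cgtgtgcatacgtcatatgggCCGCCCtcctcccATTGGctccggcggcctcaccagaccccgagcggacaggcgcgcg
Sc5d, chr9:42264301-42264364, minus strand: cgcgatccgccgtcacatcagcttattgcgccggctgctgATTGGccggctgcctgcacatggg
Hsd17b7, chr1:169969242-169969408, minus strand: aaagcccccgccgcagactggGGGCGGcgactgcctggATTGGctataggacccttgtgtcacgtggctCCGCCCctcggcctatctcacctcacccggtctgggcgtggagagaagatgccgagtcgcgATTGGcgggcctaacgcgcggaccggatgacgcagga
Hmgcs1, chr13:119690101-119690350, plus strand: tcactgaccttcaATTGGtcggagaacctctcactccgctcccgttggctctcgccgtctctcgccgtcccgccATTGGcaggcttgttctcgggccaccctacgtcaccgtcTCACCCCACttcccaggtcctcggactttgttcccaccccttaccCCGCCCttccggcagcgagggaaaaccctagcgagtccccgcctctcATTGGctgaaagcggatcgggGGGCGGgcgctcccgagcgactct

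Along the mevalonate route, 1 of 7 genes passed, Hmgcs1, and all 7 had positive log2 fold changes (0.55 to 1.62). Hmgcs1 encodes the cytosolic synthase that makes HMG-CoA. It had 95.1, 84.6 and 69.1 CPM in the knockdown libraries, against 24.7, 36.1 and 19.9 CPM in NC. Every knockdown library was above every NC library, and the mean was 3.08-fold higher (log2 fold change 1.62, standard error 0.32, adjusted p 0.0114). The predicted gene Gm48342, on the other strand, overlaps 12.1% of its exons. The other 6 genes were Acat2, which joins acetyl-CoA units, the kinase genes Mvk and Pmvk, the decarboxylase gene Mvd, the isomerase gene Idi1 and Fdps, which makes farnesyl diphosphate. In 5 of these 6 the groups did not overlap, while their adjusted p ranged from 0.0693 (Mvd) to 0.103 (Mvk). Fdps was the most abundant of the 28 genes, with 1747, 1878 and 2503 CPM in the knockdown, against 828, 1269.8 and 1272 CPM in NC (log2 fold change 0.86, standard error 0.32, adjusted p 0.1002). The predicted gene Gm43738 shares 26.7% of the exon length of Fdps on the same strand, so pairs in the shared stretch were counted for both genes. Acat2 overlapped between groups, with 226, 68.6 and 122 CPM in the knockdown and 139, 90.3 and 54.99 CPM in NC (0.55, adjusted p 0.452). Without knockdown replicate 1 its log2 fold change was −0.032.

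On the sterol route, 6 of 12 genes were higher, 1 was lower and 5 did not pass, with a median log2 fold change of 1.24. Cyp51, the demethylase of lanosterol, had the largest change among the 28 genes. It measured 389.8, 345 and 247 CPM in the knockdown libraries, against 33.8, 78.8 and 64.7 CPM in NC. The lowest knockdown library was well above the highest NC library (log2 fold change 2.47, standard error 0.37, adjusted p 0.00471). Fdft1, the squalene synthase gene that commits farnesyl diphosphate to sterols, had 1169, 933 and 1101 CPM in the knockdown, against 408, 458 and 413 CPM in NC. The groups were apart, with NC libraries close together (1.32, standard error 0.28, adjusted p 0.0140). That call was lost without NC replicate 2 (adjusted p 0.0639) or NC replicate 3 (0.0598). The last exon of Fdft1 overlaps Ctsb on the other strand, 18.8% of its exon length, and its 9 other exon stretches with any count also had higher means in the knockdown.

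Sqle, the epoxidase that acts on squalene, had 399, 239 and 206 CPM in the knockdown and 71.1, 118 and 70.2 CPM in NC. Knockdown replicate 1 was the highest, and the groups did not overlap (1.70, standard error 0.36, adjusted p 0.0141). Without NC replicate 1 or NC replicate 3 the adjusted p was 0.0576 and 0.0618. Msmo1, which oxidises methyl groups of the sterol, had 342, 392 and 419 CPM in the knockdown and 87.6, 137 and 131 CPM in NC (1.70, standard error 0.29, adjusted p 0.00681). The groups were far apart, with NC replicate 1 below the other NC libraries. Hsd17b7, the reductase of the same demethylation steps, had 50.2, 79.2 and 78.7 CPM in the knockdown and 24.3, 18.7 and 24.9 CPM in NC (1.61, standard error 0.31, adjusted p 0.0101, or 0.0608 without NC replicate 2). Sc5d, a desaturase close to the end of the route, had 115, 66.6 and 69.1 CPM in the knockdown and 22.1, 27.9 and 19.6 CPM in NC (1.85, standard error 0.33, adjusted p 0.00775). The upstream stretches of Hsd17b7 and Sc5d printed above each hold the ATTGG letters. On the same route, windows of Lss, Tm7sf2, Nsdhl, Ebp and Dhcr7, which did not pass, and of Lbr, which was lower, also hold this box.

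The enzymes between and after these did not all move. Nsdhl, the dehydrogenase that works with Msmo1 and Hsd17b7, had 97.5, 93.5 and 109 CPM in the knockdown and 74.5, 76.2 and 119 CPM in NC (0.15, standard error 0.29, adjusted p 0.763). Ebp, the sterol isomerase gene, had 257, 212 and 434 CPM in the knockdown, against 294, 450.2 and 315 CPM in NC (−0.23, standard error 0.34, adjusted p 0.695). Dhcr7, the last reductase, had 78.6, 38.2 and 40.3 CPM in the knockdown and 68.7, 53.6 and 60.6 CPM in NC (−0.22, standard error 0.34, adjusted p 0.707). The groups overlap in these 3 genes, and each difference was smaller than its standard error. Lss, which closes the rings, also overlapped, and knockdown replicate 1 (88.1 CPM) lay far above replicates 2 and 3 (21.4 and 26.1 CPM), against 52.6, 26.9 and 17.7 CPM in NC. Its log2 fold change was 0.48, and −0.49 without knockdown replicate 1.

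The reduction after Cyp51 can be made by products of a pair of genes that did not share a direction. Lbr encodes a receptor of the inner nuclear membrane that binds lamin B and chromatin and is also a sterol reductase. It had 74.8, 68.1 and 58.1 CPM in the knockdown, against 117, 123 and 157 CPM in NC. Every knockdown library was below every NC library (log2 fold change −0.98, standard error 0.27, adjusted p 0.0402). The call did not hold without knockdown replicate 2 (0.101) or 3 (0.111), without NC replicate 1 (0.0745), 2 (0.0965) or 3 (0.122), with upper-quartile scaling (0.0564) or on the most counted block alone (0.113). Tm7sf2, the reductase of the endoplasmic reticulum, was scarce, with 16.6, 18.1 and 5.36 CPM in the knockdown and 3.83, 8.17 and 5.91 CPM in NC (1.17, standard error 0.51, adjusted p 0.154). Of its exon length, 12.1% is shared with Vps51 on the same strand. Per length, the level of Tm7sf2 over that of Lbr was 0.240, 0.287 and 0.0996 in the knockdown, against 0.0355, 0.0718 and 0.0405 in NC. All 3 knockdown ratios exceeded all NC ratios, which gives an exact two-sided permutation p of 0.1, the smallest that 3 against 3 allows (0.15 adjusted over 3 such ratios).

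**Figure D2:**
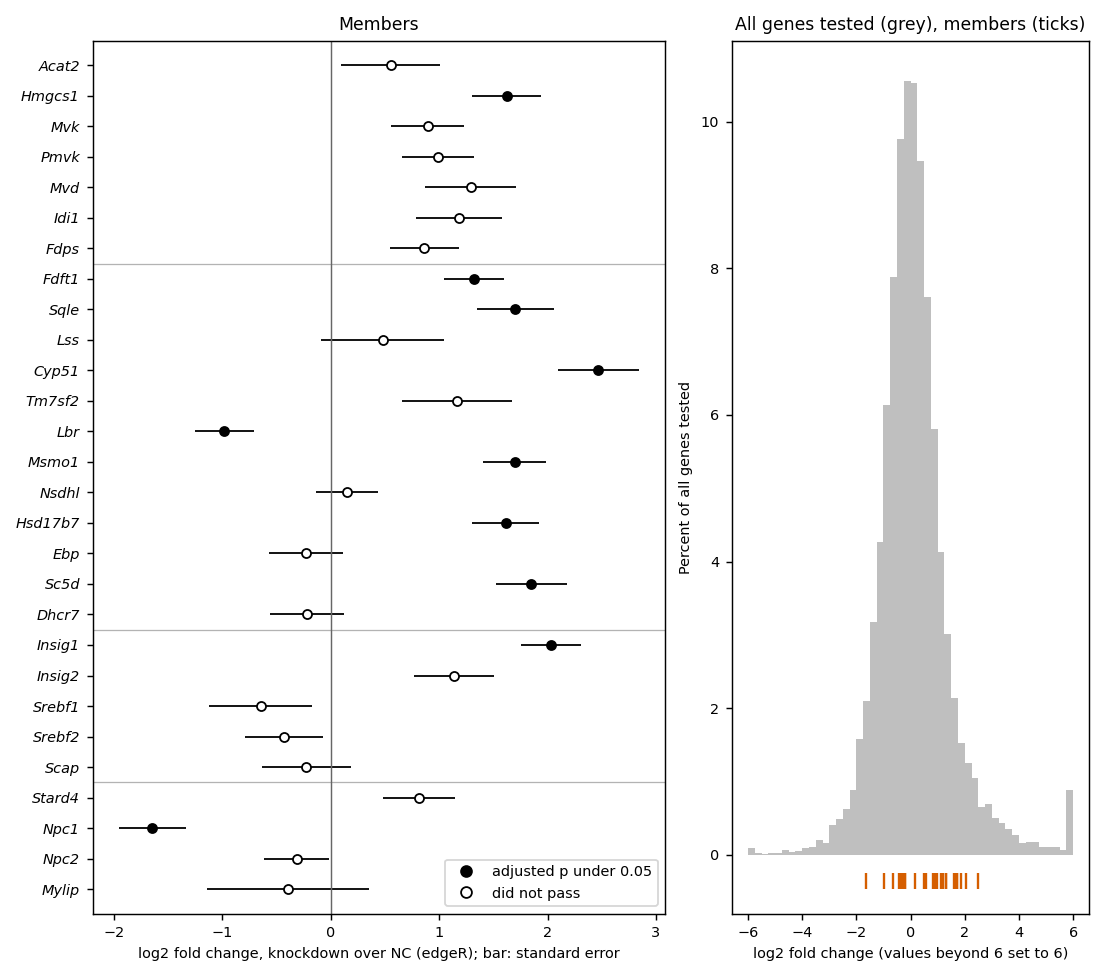
Left, log2 fold change of knockdown over NC with its standard error for each gene in pathway order, filled where the adjusted p is under 0.05. Right, percent of all genes tested in bins of log2 fold change (grey, values beyond 6 in either direction set to 6), with the 28 genes as orange ticks; most ticks lie right of 0, from −1.64 (Npc1) to 2.47 (Cyp51).

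Of the sensor and SREBP genes, Insig1 passed and the other 4 did not. Insig1 had 175, 204 and 188 CPM in the knockdown, against 52.8, 48.1 and 37.6 CPM in NC. It had the smallest p of the 28 genes, at 4.10-fold higher (log2 fold change 2.03, standard error 0.27, adjusted p 0.00317). Its paralog Insig2 had 14.5, 23.3 and 25.7 CPM in the knockdown and 6.86, 10.5 and 11.5 CPM in NC, apart between groups but short of the threshold (1.14, standard error 0.37, adjusted p 0.0684). Per length, Insig1 over Insig2 was 13.6, 9.82 and 8.21 in the knockdown and 8.63, 5.15 and 3.68 in NC, where the groups overlap (exact permutation p 0.2, also 0.2 adjusted). The factor genes had lower means in the knockdown that did not pass. Srebf2, whose product mainly drives sterol genes, had 57.8, 35.0 and 23.7 CPM in the knockdown and 62.7, 50.3 and 43.8 CPM in NC (−0.43, standard error 0.36, adjusted p 0.456). Srebf1, whose product also drives fatty acid genes, had 20.8, 8.48 and 6.02 CPM in the knockdown and 13.4, 19.9 and 22.0 CPM in NC (−0.65, standard error 0.47, adjusted p 0.394). Knockdown replicate 1 was the highest of its group for both factors, and without it Srebf1 had −1.38 (adjusted p 0.0486). Scap had 21.1, 12.8 and 11.6 CPM in the knockdown and 27.1, 12.5 and 13.5 CPM in NC (−0.22, standard error 0.41, adjusted p 0.757, and 0.21 without NC replicate 1). mRNA levels do not show how much SREBP protein was cut and active.

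Among the transfer and uptake genes only Npc1 passed, and it was lower. Npc1, the membrane protein that exports sterol from lysosomes, had 12.6, 17.3 and 11.3 CPM in the knockdown, against 49.3, 38.5 and 41.0 CPM in NC. The groups were far apart, with a log2 fold change of −1.64 (standard error 0.31, adjusted p 0.0100), or 3.12 times as much in NC. Npc2, its soluble partner in the lysosome, had 233, 188 and 309 CPM in the knockdown and 249, 362 and 296 CPM in NC (−0.31, standard error 0.30, adjusted p 0.518). Per length, Npc1 over Npc2 was 0.0260, 0.0443 and 0.0176 in the knockdown and 0.0950, 0.0511 and 0.0666 in NC, with no overlap (exact permutation p 0.1, 0.15 adjusted). Stard4, a cytosolic sterol carrier, had 62.5, 74.7 and 122 CPM in the knockdown and 54.6, 55.4 and 37.2 CPM in NC, apart between groups without passing (0.82, standard error 0.33, adjusted p 0.129). Mylip, a ligase that marks lipoprotein receptors for decay, was near the limit of detection, at 0.328 to 1.15 CPM in the knockdown and 0.525 to 1.34 CPM in NC, so no difference was detectable at this depth.

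Levels can be ranked between genes only per length, here as CPM per kilobase of merged exons. This measure is rough. The length takes in every annotated exon, while only the most counted line of each block is counted. A spliced pair also counts in several blocks, so genes with many short exons can stand too high. In the knockdown, Fdps (415 to 595 over libraries), Fdft1 (227 to 284) and Ebp (91.9 to 188) stood highest, without overlap between these neighbours. In NC, Fdps (197 to 302) led, followed by Ebp (127 to 195), Fdft1 (99.2 to 111) and Npc2 (45.8 to 66.5), and these 4 did not overlap with each other. Cyp51 had 55.8 to 88.3 in the knockdown, which overlaps Msmo1, Insig1, Acat2, Npc2, Sqle and Mvd, and 7.65 to 17.8 in NC, which overlaps 11 of the other genes, so its place in either order is not separated by the libraries. Scap, Tm7sf2 and Mylip were among the 5 lowest in both groups. Within the knockdown group replicate 1 was the highest library in 14 of the 28 genes, where it was the highest in 34.9% of all genes tested.

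The table counts exons, so each change could be followed along the gene. Exons of a gene that overlap were merged into blocks, numbered from the 5′ end, and every block with a count in any library is included here, many of them at very low counts. Among all such blocks of the genes tested, the groups did not overlap with the knockdown higher in 11.7% and lower in 13.2%. Blocks of 1 gene share read pairs and repeat the gene's own difference, so these counts describe its spread along the gene. The knockdown was higher without overlap in all blocks of Cyp51 (10 of 10), Hmgcs1 (11 of 11), Sqle (11 of 11), Msmo1 (8 of 8) and Insig1 (5 of 5). It was so in 9 of 10 blocks of Fdft1, 8 of 9 of Hsd17b7 and 6 of 7 of Sc5d, and the remaining block of each had a higher mean with overlap. In Lbr 13 of 17 blocks were lower without overlap, and 16 of 17 had a lower mean. In Npc1 16 of 22 blocks were lower without overlap, and 21 of 22 had a lower mean. Across the blocks of Cyp51 the log2 ratio of means ranged from 2.33 to 2.71. In Insig1 it was 2.80, 2.37, 2.16, 1.91 and 1.55 from the first block to the last. The share of a gene's counts in its last block did not overlap between groups in 6 of the 28 genes. It was lower in the knockdown in 5 (Hmgcs1, Idi1, Insig1, Insig2 and Stard4) and higher in 1 (Npc1), where 12.7% and 4.76% of all genes tested with several blocks were lower and higher. The last block of Insig1 held 36.5%, 26.3% and 24.8% of its counts in the knockdown, against 41.8%, 41.6% and 37.0% in NC. The last block of Npc1 held 59.9%, 54.2% and 67.0% in the knockdown, against 46.2%, 45.3% and 41.0% in NC. The log2 ratio of Npc1 was −1.22 in both its last block and block 3, and between −2.98 and −2.32 in blocks 20 to 24.

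**Figure D3:**
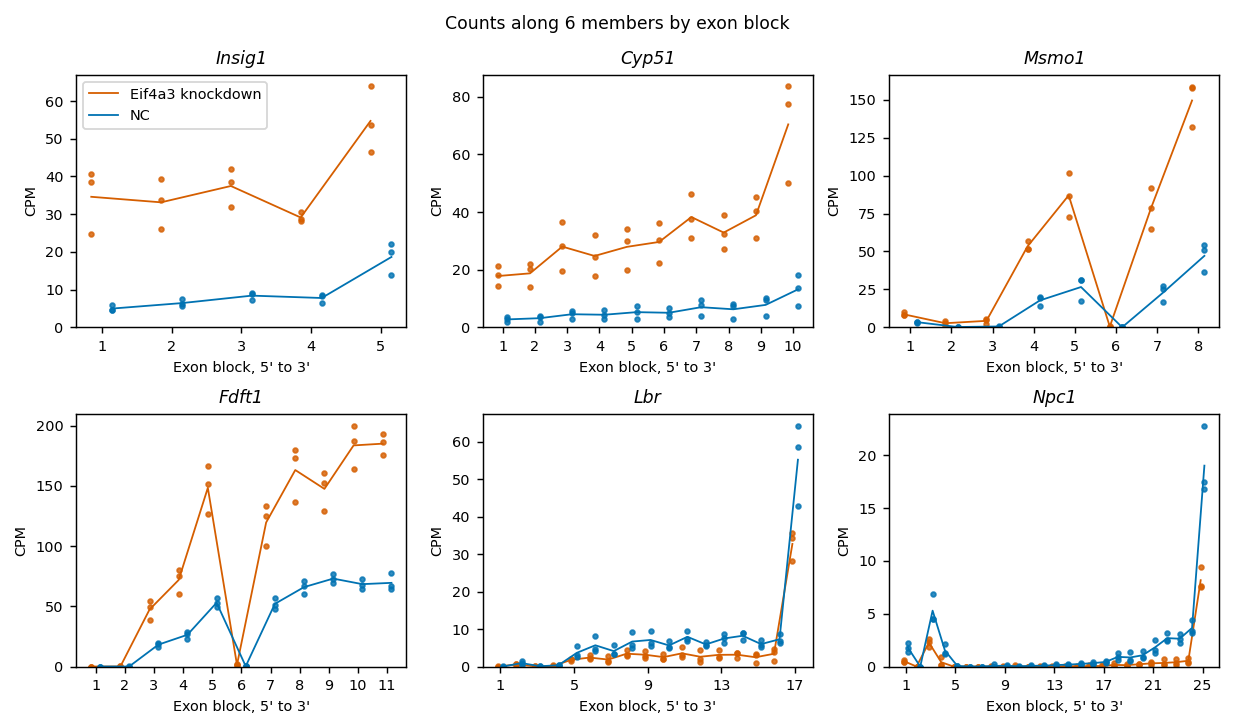
CPM of each exon block from the 5′ to the 3′ end of Insig1, Cyp51, Msmo1, Fdft1, Lbr and Npc1, with orange points for the 3 knockdown libraries, blue points for the 3 NC libraries and lines through group means. Means of the knockdown lie above NC in the 10 blocks of Cyp51, the 8 of Msmo1 and the 5 of Insig1, and below NC in 16 of 17 counted blocks of Lbr and 21 of 22 of Npc1.

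In the exon usage test of edgeR, which compares each block with the rest of its gene, 0 of 237 blocks of the 28 genes passed, where 0.168% of 67890 blocks tested did. At an unadjusted p under 0.05 there were 5 of 237 (2.11%), against 2.49% of all blocks. The smallest p belonged to block 2 of Msmo1 (chromosome 8, 64730772 to 64731059, minus strand), which GENCODE vM21 lists as an untranslated exon of a single Msmo1 transcript. It had 4.08, 2.73 and 1.14 CPM in the knockdown, against 0.249, 0.133 and 0.0656 CPM in NC. Relative to the rest of the gene its log2 change was 2.33, with an unadjusted p of 8.3e-04 and an adjusted p of 0.239. Block 3 (64729594 to 64729635), an untranslated exon of another single transcript, had 5.72, 4.91 and 2.05 CPM in the knockdown and 0.398, 0.730 and 0.394 CPM in NC (relative log2 change 1.34, unadjusted p 0.0156), which did not pass after adjustment. Block 2 held at most 1.19% and block 3 at most 1.67% of the counts of Msmo1 in any library.

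Of 82 genes in 8 other lists around this pathway, 77 were tested. With edgeR 1 of them was higher and 3 were lower, where 7.52% of all genes tested were higher and 5.56% lower. With DESeq2 4 of the 77 were higher and 10 lower, where 1829 of all 15619 genes tested were higher and 1490 lower. Partners of SREBP cleavage and escort had 0 of 11 higher or lower (median log2 fold change −0.07). An unadjusted p under 0.05 was found in 2 of these 11, and in 4705 of all 15619 genes tested. Fatty acid synthesis targets of SREBP1 had 1 of 19 higher and 0 lower (median −0.27). The higher gene was Lpin1, a phosphatidate phosphatase, with 43.0, 19.1 and 20.8 CPM in the knockdown, against 6.96, 5.98 and 5.12 CPM in NC (2.20, standard error 0.41, adjusted p 0.00913, or 0.0512 without NC replicate 2). Targets of the sterol receptor LXR and efflux genes had 0 of 9 higher and 1 lower (median −0.22), the lipid droplet coat gene Plin2. It had 254, 107 and 75.6 CPM in the knockdown and 434, 357 and 446 CPM in NC (−1.50, standard error 0.43, adjusted p 0.0449).

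Esterification and ester hydrolysis had 0 of 5 higher and 1 lower (median −1.34), Soat1, the enzyme that esterifies cholesterol for storage. It had 18.5, 47.1 and 19.4 CPM in the knockdown and 71.5, 68.2 and 106 CPM in NC (−1.53, standard error 0.41, adjusted p 0.0359). Sterol transfer between membranes had 0 of 13 higher and 1 lower (median −0.46), the lipid transfer gene Stard10, with 85.7, 91.9 and 112 CPM in the knockdown and 214, 192 and 174 CPM in NC (−1.002, standard error 0.26, adjusted p 0.0337). The calls of Plin2, Soat1 and Stard10 were each lost without any 1 of the 3 NC libraries or without knockdown replicate 3 (adjusted p 0.0536 to 0.11), and also without knockdown replicate 2 for Plin2 (0.141) and Stard10 (0.101) or replicate 1 for Soat1 (0.0648). Plin2 also missed the threshold on the sum of all exon lines (0.0508) and Stard10 on the most counted block (0.0528). The non-sterol branch from farnesyl diphosphate had 0 of 12 higher or lower (median 0.21), lipoprotein uptake 0 of 7 (median −1.26) and oxysterol routes 0 of 2 tested. An unadjusted p under 0.05 was found in 2, 4 and 1 genes of these lists, where 4705 of all 15619 genes tested had one. In the lists with a called gene it was found in 4 of 19 (fatty acid synthesis), 2 of 9 (LXR), 2 of 5 (esterification) and 4 of 13 (sterol transfer).

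**Figure D4:**
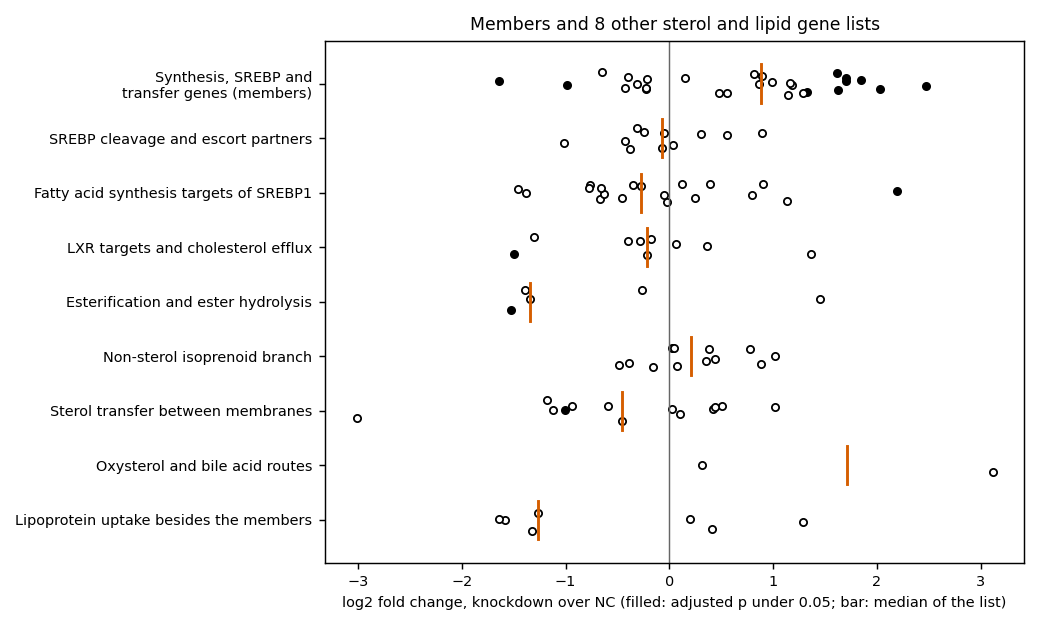
log2 fold change of knockdown over NC for each gene of the 28 and of 8 other sterol and lipid lists, filled where the adjusted p is under 0.05, with the median of each list as an orange bar. The 28 genes have a median of 0.88, and the other lists lie between −1.34 and 0.21 except the oxysterol routes, with 2 genes tested.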

How the data were processed

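RNA of 6 pools of 5 embryos was sequenced with Smart-seq2 as paired reads of 150 bases, per the labels. Per the submitters' processing notes, the authors used FastQC 0.11.9, fastp 0.20.1, STAR 2.7.6a, featureCounts 2.0.1, R 4.1.1 and DESeq2 1.34.0 with GRCm38. Per the file headers, the deposited values are raw counts of read pairs per exon line (GENCODE vM29 on GRCm38, strand setting 2, a pair counted in each line it overlaps). Smart-seq2 as usually run does not mark strand, so pairs read in the other orientation would not be counted, and overlapping genes cannot be told apart. Table columns marked si were taken as the Eif4a3 siRNA libraries.

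Repeated lines were dropped, overlapping exons merged into 291424 blocks, the most counted line kept per block and blocks summed per gene. A spliced pair counts in several blocks. Symbols were found for 55102 of 55378 gene IDs; 1 listed name, Spring1, had none. The planned gene test was kept on these sums. edgeR 4.0.16 (filterByExpr, TMM, glmQLFit, glmQLFTest, diffSpliceDGE, Benjamini-Hochberg) ran under R 4.3.3 and was tested on simulated data. DESeq2 1.42.0, other scalings, filters, exon sums, a replicate block and leaving out each library were alternatives. The members, lists and naming rule were chosen with earlier results of these data known. The rule gives every library's value for members that pass and for sensor and factor genes, names called genes of other lists, and shows up to 4 promoters by smallest p. Per-library values of other members, and the limit of promoters to stretches outside exons that hold CCAAT or a sterol element, were chosen after values were seen. Sequences are from RefSeq.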

Additional observations from a re-analysis of the deposited data

How the results depend on the processing

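Among the values of the 28 genes under alternatives, 358 kept their direction and side of the threshold, 12 lost a call, 16 gained one and 3 changed sign. Insig1, Cyp51, Msmo1, Sc5d, Hmgcs1 and Npc1 kept their calls under all 14 alternatives. Leaving out 1 library at a time, Acat2 ranged from −0.032 to 0.94, Lss from −0.49 to 1.03 (both lowest without knockdown replicate 1) and Scap from −0.59 to 0.21 (highest without NC replicate 1). The cause was not tested. With DESeq2's Wald test 13 of the 28 genes were higher (Pmvk, Mvd, Idi1, Fdps and Insig2 added). Of all 15619 genes tested 1829 were higher and 1490 lower, and of the 77 in the other lists 4 were higher and 10 lower. With no filter 2089 genes were higher and 1518 lower, and 2 and 8 in the other lists. Upper-quartile scaling and the most counted block each left 1 of the 28 lower, and the most counted block gave 4 higher and 6 lower in the other lists.

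With 1 library left out, 6 to 10 of the 28 genes were higher and 1 to 3 lower. Over all genes 550 to 1224 were higher and 336 to 1130 lower, and in the other lists 0 to 1 higher and 0 to 7 lower. Exon usage called 21 to 154 blocks in all, and 0 in the 28 genes in every alternative. Replicates are numbered alike in both groups. After group means were removed, libraries of equal number correlated at 0.269, 0.003 and 0.1, and NC replicate 2 was closest to knockdown replicate 3 (0.186), so the numbers were not taken as pairs. With the replicate block 12 of the 28 genes were higher and 2 lower, 6 genes of the other lists were lower, and 174 blocks were called by exon usage.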
